A study of Mus musculus with 9 samples.

Results

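Where Hoxa13 and Hoxa11, a pair of homeodomain proteins, bind around the distal limb genes Sall1 and Sall3 was described from peak lists of chromatin immunoprecipitation and sequencing (ChIP-seq). The members were all peaks whose start lay between 91.2 and 91.9 Mb on mouse chromosome 8 (Sall1, gene ID 58198) or between 80.85 and 81.5 Mb on chromosome 18 (Sall3, gene ID 20689), in build mm9. These windows of 700 and 650 kb held 94 of the 243649 peaks of the series, 52 at Sall1 and 42 at Sall3. The tissue came from wild-type embryos of the ICR strain, with no other allele or agent named. Hoxa13 was precipitated from the autopod, the future hand and foot, at embryonic day 11.0 (E11.0), pooled from 11 pairs of autopods, from limb buds of E11.5 (whole, a litter of embryos) and from limb buds of E12.5. Each of these stages has 1 library. For Hoxa11 there are replicates 1 and 2, both of E11.5 limb buds. The antibodies were home-made, and the E12.5 library was made by a separate, earlier published protocol. Stage, dissected tissue and protocol therefore cannot be told apart between stages.

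Sall1 and Sall3 encode zinc-finger transcription factors of the spalt family, which act mainly as repressors. Both genes are active in the distal mesenchyme of the mouse limb bud, and mutations of human SALL1 cause Townes-Brocks syndrome, in which the thumb can be malformed. Hoxa13 takes part in forming the autopod, and Hoxa11 acts in the forearm and lower leg, each together with paralogues. Both bind DNA through a homeodomain, and posterior HOX proteins of the Hoxa13 type favour sites built on the letters TTAT. The peak lists record where each protein was called on the chromosome and not whether a gene responded.

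For Sall1, RefSeq gives 3 promoters of 300 bases, from 250 bases before to 50 after a start, in build GRCm38.p6. The promoter farthest upstream is shown because it lets the HOX-type letters be seen in place, with each TTAT or ATAA in capitals. It lies at chr8:89044113-89044412 on the minus strand of GRCm38.p6. That build is not the one of the peaks, so no peak was placed on it.
Sall1 promoter: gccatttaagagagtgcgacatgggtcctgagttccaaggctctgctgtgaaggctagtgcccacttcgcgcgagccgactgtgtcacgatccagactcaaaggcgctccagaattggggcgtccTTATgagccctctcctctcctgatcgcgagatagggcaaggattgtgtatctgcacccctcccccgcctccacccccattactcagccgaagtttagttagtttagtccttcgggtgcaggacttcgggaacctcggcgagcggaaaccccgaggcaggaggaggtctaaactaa
As printed it held 1 TTAT, and it had a GC content of 57.3%, against a median of 52.7% over 32851 promoters of the table. The next promoter downstream held 1 TTAT and the last held 0, so 2 of 3 carried the word, against 64.1% of all promoters. These further promoters had GC contents of 70.0% and 79.7%, so all 3 were richer in GC than the median. The part of GC content in the counts of these and the following AT-rich words was not tested. Longer words were searched on both strands too. The word TTTAT was in 0 of the 3 Sall1 promoters, against 40.0% of all promoters. TTTTAT, each match of which holds the shorter word, was in 0 of 3, against 18.5%. Each match of CAATAAA likewise holds TTTAT on the other strand, and it was in 0 of 3, against 4.60%. The zeros of these longer words therefore follow from that of TTTAT. For TTTAC the count was 0 of 3, against 31.5%. In the order of coding genes in GRCm38, Sall1 lies between Cyld and Tox3, and Sall3 between Atp9b and Galr1. Where the genes themselves begin and end within the mm9 windows was not used here.

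Around Sall1, Hoxa13 peaks were about as frequent as in the middle of the genome's range at E11.5, and sparser than that at the outer stages. The Sall1 window held 5 Hoxa13 peaks in the E11.0 list, 38 at E11.5 and 5 in the E12.5 list. The Sall3 window held 7, 29 and 6 at the same stages. To set these counts beside the genome, chromosomes 1 to 19, X and Y were divided into 3675 tiles of 700 kb and 3959 tiles of 650 kb. The median 700 kb tile held 11 E11.0 peaks (quartiles 6 and 18), 36 at E11.5 (23 and 51) and 11 in the E12.5 list (6 and 16). As many peaks as at Sall1, or more, stood in 84.7% of tiles in the E11.0 list, 48.3% in that of E11.5 and 83.9% in that of E12.5. For Sall3 and 650 kb tiles these shares were 71.8%, 60.2% and 75.6%, with tile medians of 11, 33 and 10 peaks. Each of these 6 counts was thus near or below the middle of the genome's range, and lower in it at E11.0 and E12.5 than at E11.5. The E11.5 list is the longest (143460 peaks, where E11.0 has 50890 and E12.5 has 44699), and the raw counts of the stages are not on one footing. With every stage limited to its widest 44699 peaks, Sall1 held 5, 9 and 5 peaks at E11.0, E11.5 and E12.5, and Sall3 held 6, 10 and 6. The E11.5 count was thus smaller than in the full list but still the highest of the 3 stages in both windows. Tiles were not counted with the limited lists, so whether this order is particular to the windows was not tested.

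**Figure D1:**
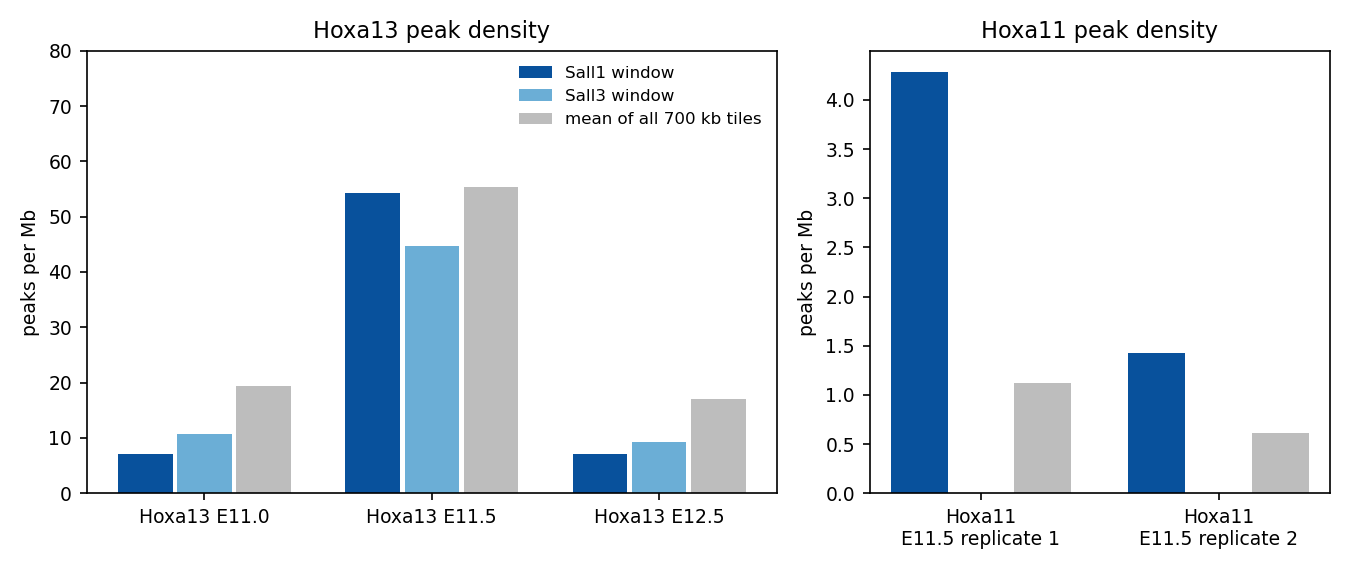
Peaks per Mb (linear axes from 0, different for the 2 panels) in the Sall1 window, the Sall3 window and on average over all 700 kb tiles, for each peak list. Hoxa13 at E11.0 and E12.5 stood at 7.14 peaks per Mb around Sall1, against tile means of 19.3 and 16.99, and Hoxa11 bars are absent around Sall3, where no peak was listed.

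Hoxa11 was listed around Sall1 and not around Sall3. Replicate 1 had 3 peaks and replicate 2 had 1 peak in the Sall1 window, against 0 and 0 in the Sall3 window. At least 3 replicate 1 peaks stood in 7.78% of 700 kb tiles, and at least 1 replicate 2 peak in 25.2%. No Hoxa11 peak is the usual state of a region this size, as 61.5% of 650 kb tiles had none in replicate 1 and 76.0% none in replicate 2. The nearest Hoxa11 peaks to the Sall3 window lay 446 kb below its lower edge in both replicates, at 80403349 to 80403698 in replicate 1 and 80403388 to 80403658 in replicate 2. Near Sall1, replicate 2 had a further peak 165 kb above the upper edge, at 92065263 to 92065472, while the nearest outside peak of replicate 1 was 699 kb above it.

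The replicated Hoxa11 site at Sall1 stood apart from Hoxa13. It was called at 91632177 to 91632414 (238 bp) in replicate 1 and at 91632024 to 91632327 (304 bp) in replicate 2, and the peaks shared 151 bp. In the whole lists, 35.8% of replicate 1 and 64.6% of replicate 2 peaks overlapped the other replicate. No Hoxa13 peak of any stage overlapped it: the nearest lay 6477 bp away at E11.5, 84188 bp at E11.0 and 84238 bp at E12.5, measured from the replicate 1 peak. Over the whole genome, 16.2% of 1020 merged sites with both Hoxa11 replicates held no Hoxa13 peak, so a site of this kind is a minority case but not a rare one. A site of both replicates was found in 18.3% of 700 kb tiles. In the authors' deposited table of replicate 2 the peak had a score of 43, a fold enrichment of 2.87 and a −log10 q-value of 4.3, with its summit at 91632146. The list medians were 70, 3.90 and 7.10, and 79.4% of the 1647 peaks of that list had a higher score. The site was therefore among the lower-scoring ones of its list, and with 50% of both peaks required to overlap the replicates no longer matched there.

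The other Hoxa11 peaks at Sall1 were seen in replicate 1 alone. The peak at 91716599 to 91716819 (221 bp) lay inside an E11.5 Hoxa13 peak and overlapped Hoxa13 at E11.0 and E12.5 too. Of the sites with Hoxa13 at all 3 stages, 5.17% of 13780 in the genome held a Hoxa11 peak of either replicate. The peak at 91442779 to 91443010 (232 bp) overlapped no Hoxa13 peak, but an E11.5 peak at 91443080 to 91443329 began 69 bp beyond its end. Thus 1 of 3 replicate 1 peaks overlapped E11.5 Hoxa13 (33.3%, exact 95% interval 0.84 to 90.6), against 71.0% of the whole list, and 2 of 3 did when peaks within 200 bp were counted. By its title, 1 input library served both the E11.5 Hoxa13 library and the first Hoxa11 replicate, and its part in their overlap was not tested.

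**Figure D2:**
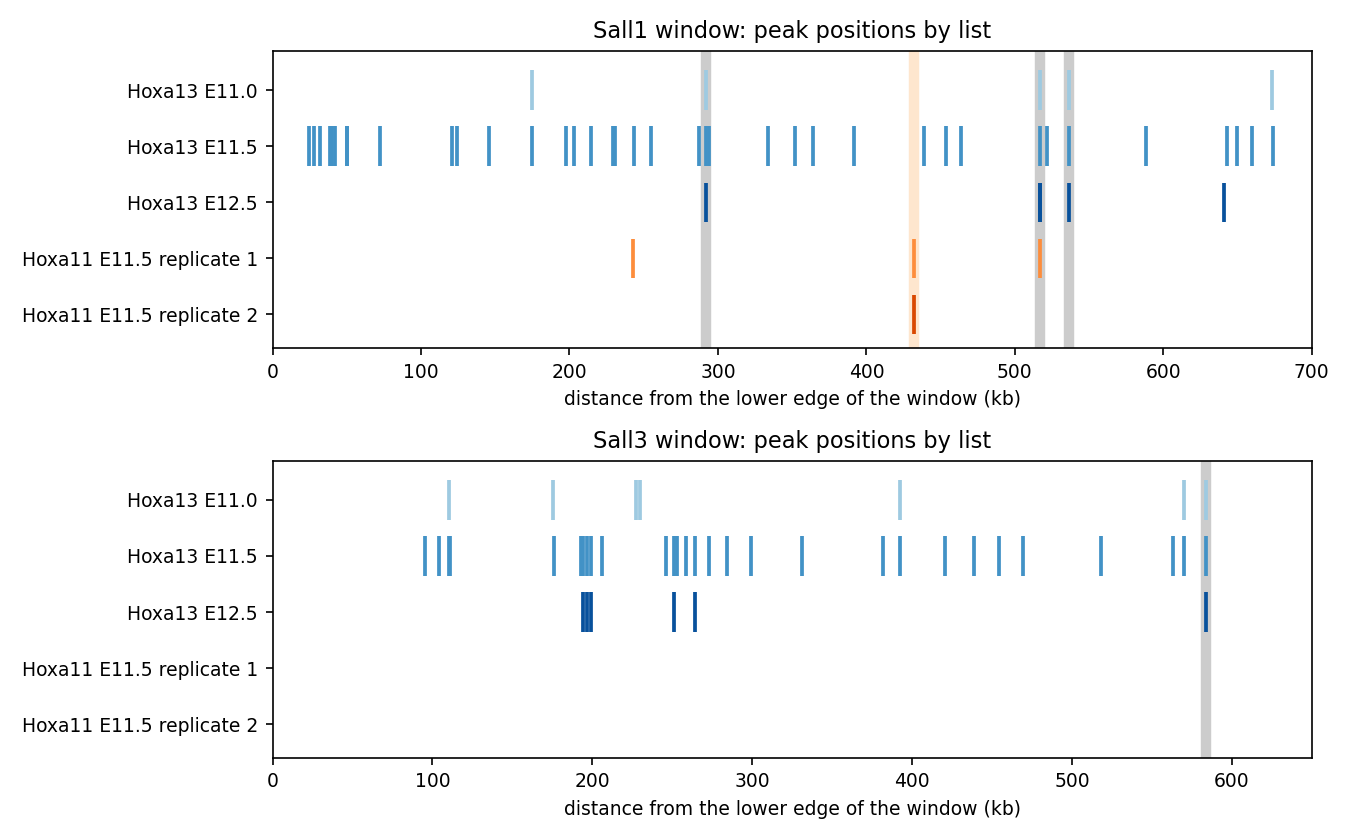
Positions of all 94 peaks along the Sall1 window (above) and the Sall3 window (below), in kb from the lower edge, with 1 row per peak list. Grey bands mark the 3 Sall1 sites and the 1 Sall3 site called at all Hoxa13 stages, and the orange band marks the Sall1 site of both Hoxa11 replicates, where the Hoxa13 rows are empty.

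Overlapping peaks of the 5 lists merged to 42 sites at Sall1 and 31 at Sall3. Sites with Hoxa13 at all 3 stages numbered 3 at Sall1 (7.14%) and 1 at Sall3 (3.23%), against 7.81% of 176371 sites in the genome. At least 3 such sites stood in 56.9% of 700 kb tiles, and at least 1 in 86.0% of 650 kb tiles, so neither number is unusual. The Sall1 sites were at 91492046 to 91492445, 91716520 to 91717022 and 91736164 to 91736511. They fell into an isolated site and, 224 kb away, a pair separated by 19.1 kb. The single Sall3 site, at 81433410 to 81433866, was the last in its window. All 4 of these sites were bounded by their E11.5 peaks, of 400, 503, 348 and 457 bp, and within each the E11.0 and E12.5 peaks lay wholly inside.

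At the first Sall1 site, the E11.0 peak was 377 bp, the E11.5 peak 400 bp and the E12.5 peak 182 bp wide. At the second, the widths were 328, 503 and 260 bp, in the order E11.0, E11.5 and E12.5, and the E11.5 and E12.5 peaks were the widest of their lists in the window. This was also the site with the replicate 1 Hoxa11 peak, whose centre lay 62 bp below that of the E11.5 peak. A further E12.5 peak, at 91717071 to 91717265 (195 bp), began 48 bp past the end of the E11.5 peak and counted as a site of E12.5 alone. At the third Sall1 site the widths were 196, 348 and 120 bp, and at the Sall3 site 231, 457 and 151 bp. Centres of the E11.0 and E12.5 peaks lay within 36 bp of the E11.5 centre at all 4 sites.

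In the full lists, most E11.0 Hoxa13 peaks of both windows overlapped an E11.5 peak. All 5 E11.0 peaks at Sall1 overlapped an E11.5 peak (100%, exact 95% interval 47.8 to 100), and 5 of 7 at Sall3 did (71.4%, 29.0 to 96.3), against 58.1% of the whole E11.0 list, a share that both intervals include. With every stage limited to its widest 44699 peaks, 4 of 5 did at Sall1 and 3 of 6 at Sall3. The share of all E11.0 peaks at that limit was not computed, and the 58.1% is of the full lists. E12.5 overlapped 3 of the 5 at Sall1 (60.0%, 14.7 to 94.7) and 1 of the 7 at Sall3 (14.3%, 0.361 to 57.9), against 30.7% of the whole list. Beside its sites of all stages, Sall1 had E11.0 peaks at 91374640 to 91374987 (348 bp) and 91873407 to 91873686 (280 bp) that overlapped E11.5 and not E12.5. At Sall3 there were 4 such sites, with E11.0 peaks at 80960302 to 80960488, 81025586 to 81025813, 81242324 to 81242534 and 81420065 to 81420480. The last of these was the widest E11.0 peak of the window, at 416 bp, and met an E11.5 peak of 439 bp. The E11.0 peaks at 81076965 to 81077154 and 81079626 to 81079820 overlapped no other list, and their nearest E11.5 peaks were 18821 and 16155 bp away.

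In the full lists and with overlaps of at least 1 bp, the windows differed in where the E12.5 peaks fell. At Sall1, 3 of 5 E12.5 peaks overlapped E11.5 (60.0%, exact 95% interval 14.7 to 94.7) and the same 3 overlapped E11.0. At Sall3, 6 of 6 overlapped E11.5 (100%, 54.1 to 100) but 1 of 6 overlapped E11.0 (16.7%, 0.421 to 64.1). In the whole E12.5 list, 70.7% of peaks overlapped E11.5 and 35.6% overlapped E11.0, and the intervals of both windows include these shares. Sites of E11.5 and E12.5 without E11.0 thus numbered 0 at Sall1 and 5 at Sall3, or 0% and 17.2% of the E11.5 peaks (upper bound 9.25% at Sall1, interval 5.85 to 35.8 at Sall3), against 12.1% of the whole E11.5 list. The difference between the windows was not tested, since peaks of 1 library are not replicates. The remaining E12.5 peak at Sall1, at 91840971 to 91841127 (157 bp), was 1513 bp from the nearest E11.5 peak.

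The 5 Sall3 sites of E11.5 and E12.5 without E11.0 lay within 70.3 kb, from 81044128 to 81114412. How often as many such sites lie within this distance elsewhere in the genome was not counted. In that stretch there were 9 E11.5 peaks, 5 E12.5 peaks and 2 E11.0 peaks, which were the pair that overlapped no other list. The E11.5 peaks of the 5 sites spanned 81044128 to 81044580 (453 bp), 81046754 to 81047035 (282 bp), 81048704 to 81049302 (599 bp), 81100898 to 81101132 (235 bp) and 81113995 to 81114412 (418 bp). The third was the widest peak of any Hoxa13 list in the 2 windows, wider than or equal to 97.0% of all E11.5 peaks. Its E12.5 partner was 124 bp, and the other E12.5 partners were 179, 118, 110 and 121 bp wide, each inside its E11.5 peak. The widest E12.5 peak at Sall3 was thus at the first of these sites, at 81044305 to 81044483.

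Most E11.5 peaks of both genes were called at that stage alone among the Hoxa13 lists. At Sall1 these were 33 of 38 (86.8%, exact 95% interval 71.9 to 95.6) and at Sall3 19 of 29 (65.5%, 45.7 to 82.1), against 67.4% of the whole list. The interval of Sall1 lies above the share of the whole list, and that of Sall3 includes it. With every stage limited to that length, the shares came to 55.6% of 9 at Sall1 and 40.0% of 10 at Sall3, against 44.3% of the list. There the interval of Sall1 was 21.2 to 86.3, and it included the list's share. With 50% of both peaks required to overlap, Sall1 stayed at 86.8% (71.9 to 95.6), against 77.8% of the list, which that interval includes as well. In the full lists with the window narrowed by 100 kb at each edge, Sall1 had 84.0% of 25 (63.9 to 95.5), which includes 67.4%. Widened by 100 kb, it had 85.1% of 47 (71.7 to 93.8), above that share. In these settings the Sall1 interval lay above the list's share only with full lists, the 1 bp rule and the window not narrowed. In the narrowed window the share was close to that of the full window but came from fewer peaks. Under the 50% rule the Sall1 share was unchanged and that of the list was higher. With the wider 50% of each list it was 76.5% of 17 (50.1 to 93.2), where the list's share was not computed. Of the Sall1 peaks, 8 stood in a run of 26.4 kb near the lower edge, from 91224164 to 91250550, with no peak of another list. This run held the second widest E11.5 peak of the window, at 91238664 to 91239078 (415 bp). Near Sall3 the second widest, at 81368177 to 81368689 (513 bp), was likewise met by no other list.

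At E11.5, peaks called at more than 1 Hoxa13 stage had the larger median width, but the ranges overlapped. The median width was 355 bp for the 5 shared and 258 bp for the 33 unshared E11.5 peaks at Sall1. At Sall3 it was 418.5 bp for 10 shared and 271 bp for 19 unshared peaks, and in the whole list 341 and 267 bp. Shared peaks ranged from 289 to 503 bp at Sall1 and from 235 to 599 bp at Sall3. Unshared peaks ranged from 210 to 415 bp and from 204 to 513 bp. The part of width in the chance of an overlap was not tested. The median E12.5 peak was 182 bp at Sall1 and 122.5 bp at Sall3, against 154 bp in the whole list. At E11.0 the medians were 328 bp at Sall1 and 211 bp at Sall3, against 245 bp, and at E11.5 they were 269 and 281 bp, against 286 bp. At both outer stages the Sall1 peaks thus had a median above that of the whole list and the Sall3 peaks one below it.

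**Figure D3:**
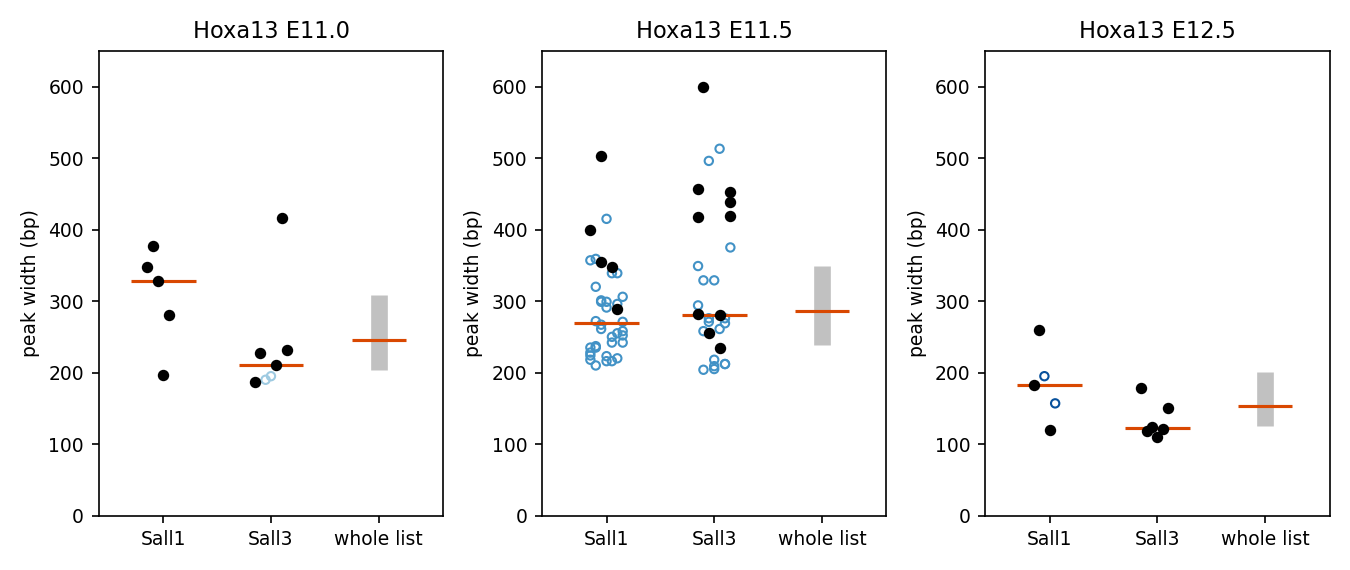
Width in bp of each Hoxa13 peak in the Sall1 and Sall3 windows, by stage, with the median as a line, beside the median (line) and quartiles (bar) of the whole list. Filled black points are peaks at sites called at more than 1 Hoxa13 stage, and open points are peaks at sites of 1 stage. At E12.5 all 6 Sall3 peaks are filled, and at E11.5 the widest peak in each window is filled.

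Where stages met, the E12.5 peak marked a narrow part of the E11.5 interval. All 9 E12.5 peaks at E11.5 sites of the 2 windows lay wholly inside the E11.5 peak, at 20.7% to 51.7% of its width (median 39.5%). Over the whole E12.5 list, 85.3% of the peaks that met E11.5 lay wholly inside, with a median of 47.4% of the width, so this is the usual state of that list. Of 10 E11.0 peaks, 6 lay wholly inside and the widths ran from 50.4% to 120% of the E11.5 width (median 76.0%), where the whole list had 48.2% inside and a median of 76.5%. Under a rule that needs 50% of both peaks to overlap, 0 of the 6 Sall3 E12.5 peaks met E11.5, against 29.6% of the whole E12.5 list, and sites of all 3 stages fell to 1 at Sall1 and 0 at Sall3. The Sall3 E12.5 peaks were at most 46.8% as wide as their E11.5 peaks. Both counts of 0 at Sall3 were thus fixed by width.

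Sites were spread along both windows with empty stretches between them. Spacing over the rest of the genome was not measured. The median distance between neighbouring sites was 10879 bp at Sall1 and 10486.5 bp at Sall3. The longest distance between neighbouring sites was 52.9 kb at Sall1, from 91663663 to 91716519, directly below the site that carried Hoxa13 at all stages and Hoxa11. At Sall3 it was 64.4 kb, from 80961165 to 81025585, shorter than the empty stretches at both edges of that window. Edges were applied to peak starts, and distances to them are measured from there. At the Sall1 window, the first peak inside was an E11.5 peak 24.2 kb from the lower edge (218 bp wide) and the last to start an E11.0 peak 26.6 kb from the upper edge (280 bp). The nearest peaks outside were E11.5 peaks 71.7 kb below (276 bp, starting at 91128321) and 12.7 kb above (432 bp, starting at 91912743). For Sall3, the first and last peaks to start inside were an E11.5 peak 95.2 kb from the lower edge (349 bp) and an E12.5 peak 66.4 kb from the upper edge (151 bp). Just outside were E11.5 peaks 2.46 kb below (268 bp, starting at 80847545) and 20.6 kb above (218 bp, starting at 81520581).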

How the data were processed

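The submitters' processing notes name the build mm9 and the tools MACS2 2.1.0, Bowtie2 2.2.2 and CASAVA 1.4. Their roles, thresholds and the use of input are not given in the sources used here. Of 9 libraries, 4 are input DNA, not analysed here. The deposited lists of Hoxa13 and of Hoxa11 replicate 1 hold chromosome, start and end of each peak. The list of Hoxa11 replicate 2 adds the authors' score, fold enrichment (a ratio to background), −log10 p-value and −log10 q-value, and summit, in narrowPeak order. These are the authors' own values and describe peaks within that list only.

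Read depth is unknown. Positions are printed 1-based. Peaks that shared at least 1 bp counted as overlapping and were merged to sites. Tiles ran from the first to the last peak of each chromosome. Exact Clopper-Pearson intervals at 95% cover counting error over peaks, which are not replicates. No test between windows or stages was run. The labels do not say whether the Hoxa11 replicates came from separate litters. Overlap counting was tested on simulated intervals. Windows, lists and alternatives were chosen with earlier results of these data known. Named were all sites of 3 Hoxa13 stages, all sites with Hoxa11, the 2 widest peaks per Hoxa13 list and window, and the peaks at the edges. The 5 Sall3 sites of E11.5 and E12.5, the E11.0 peaks outside the all-stage sites, the E12.5 peaks without E11.5, the run of E11.5 peaks at Sall1 and the word TTAT were chosen after their values were seen. Python 3.11.15, pandas 2.3.3, scipy 1.17.1 and matplotlib 3.10.9 were used.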

Additional observations from a re-analysis of the deposited data

How the results depend on the processing

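Of 190 values recomputed for 34 results, 157 stayed close to the value reported (within the interval of a share, the quartiles of a width, or 1.5 times a count) and 33 moved. Part of the 157 could not have moved. Hoxa11 counts of 0 at Sall3 stay 0 under any setting that only removes peaks or changes the overlap rule. Limiting the Hoxa13 lists left the Hoxa11 lists as they were. The tally is therefore no measure of how firm the results are. With 50% of both peaks required to overlap, sites of all 3 stages numbered 1 at Sall1 and 0 at Sall3, Hoxa11 sites at Sall1 of both replicates 0 and those meeting E11.5 Hoxa13 0, the share of Sall3 E12.5 peaks meeting E11.5 was 0%, and that of Sall3 E11.5 peaks met by neither other stage 86.2%. The Sall3 E12.5 peaks were each narrower than 50% of their E11.5 peak, so that 0% was fixed by width. With peaks within 200 bp counted, 2 Hoxa11 sites at Sall1 met E11.5. With the widest 44699 peaks of each Hoxa13 list, E11.5 peaks numbered 9 at Sall1 and 10 at Sall3, with medians of 357 and 446 bp, and the shares met by neither other stage were 55.6% and 40.0%. With the wider 50% of each list, Sall1 had 17 E11.5 peaks, 0 Hoxa11 replicate 1 peaks, 1 Hoxa11 site, 0 of both replicates and 0 that met E11.5. There Sall3 had 1 E11.0, 13 E11.5 and 1 E12.5 peak and 0 sites of all stages, and its E11.0 peak met E11.5 (100%) and not E12.5 (0%), its E12.5 peak met E11.0 in 0%, and 84.6% of its E11.5 peaks met neither. With windows narrowed by 100 kb at each edge, Sall1 had 25 E11.5 peaks, and Sall3 had 0 sites of all stages and 0% of overlap between E11.0 and E12.5 in either direction. Widened by 100 kb, Sall3 had 2 sites of all stages. Leaving out either Hoxa11 replicate gave 1 to 3 Hoxa11 sites at Sall1 and 0 to 1 that met E11.5, the lower values without replicate 1. Placing peaks by any overlap with the window moved none of 28 values. The cause of these moves was not tested. No paired analysis was possible because each Hoxa13 stage has 1 library, and no result comes from a test. Read depth is unknown, so a place without a peak may hold binding below the callers' threshold.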
